A study of Mus musculus with 71 samples.

Results

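The translation initiation and elongation factors are the proteins that load the ribosome onto messenger RNA and move it along the message. On these arrays they were taken as every probe set with a single gene symbol beginning with Eif or Eef and a digit. The symbols Eif2ak3, Eif2s3x and Eif2s3y, with 8 probe sets, were left out. This gave 147 of 45037 probe sets, standing for 55 of 18193 named genes, of which 44 were Eif genes on 125 probe sets and 11 were Eef genes on 22. A probe set is the group of short probes that the array uses to read 1 transcript, so several probe sets can report on different parts of 1 gene.

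The RNA came from whole brains of male mice of 3 inbred strains, DBA/2J, AKR/J and C57BL/6J, 12 to 13 weeks old and bought from the Jackson Laboratory. Sleep-deprived mice had been kept awake for 6 h up to the time of sacrifice, at Zeitgeber time 0 (ZT0, light onset), ZT6, ZT12 (dark onset) or ZT18, and controls stayed in the home cage and were sacrificed with them. The ZT6 and ZT12 groups therefore lost sleep in the first and the second part of the light period, and the ZT18 and ZT0 groups in the first and the second part of the dark period. Each of the 24 groups of strain, condition and time held 9 mice in 3 pools of 3, with 1 array per pool, except AKR/J sleep deprived ZT18 with 2 arrays here, which gives 36 control and 35 sleep-deprived arrays. The p-values therefore measure the spread between pools of mice. The labels name no transgene or drug.

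In initiation, eIF2 carries the initiator methionyl-tRNA to the small ribosomal subunit, eIF3 and eIF1A help hold the complex on the message, and eIF5 makes eIF2 hydrolyse its GTP when the start codon is found. The eIF4 proteins bind the cap of the message and unwind it, and eIF2B recharges eIF2 with GTP, a step that the eIF2 kinases block by phosphorylating eIF2. During elongation, eEF1A brings each aminoacyl-tRNA and eEF2 moves the ribosome on. Much of the control of these factors works through phosphorylation of the proteins, which an RNA array does not read. In whole tissue, fewer cells of a type and less RNA per cell cannot be told apart.

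The array medians lay between 5.65 and 5.71 on the log2 scale, with single values from 2.69 to 14.8. Pairs of replicate arrays within a group differed from each other by a root mean square of 0.145 to 0.239. The arrays were clustered by their bacterial spike-in probe sets and cut into 2 sets, a cut that always gives 2. The smaller set, called the spike-in arrays below, held 6. These were AKR/J control ZT0 and ZT6 replicate 3, C57BL/6J control ZT0 replicate 3, C57BL/6J sleep deprived ZT0 replicate 3, and C57BL/6J sleep deprived ZT6 replicates 1 and 3. The labels name no batch for them. Of the marker genes for the labelled tissue, neuronal markers had mean levels of 11.2 to 11.5 in both conditions, with 1 of 10 lower and 0 higher after sleep deprivation. Astrocyte markers had 1 of 9 lower, microglial markers 2 of 8 higher and 1 lower, endothelial markers 1 of 6 higher and 2 lower, and choroid plexus (7) and blood cell (4) markers had none called. Oligodendrocyte markers had 4 of 7 lower and 0 higher, with a mean level of 10.42 to 10.97 (median 10.66) in controls and 10.35 to 10.76 (median 10.51) in sleep-deprived arrays. Pituitary markers, which depend on how the brain was taken out, ranged from 4.98 to 9.43 in controls and from 4.94 to 9.23 in sleep-deprived arrays, with 0 of 7 called. The part of these differences in the results on the translation factors was not tested, apart from the pituitary level, which was entered as a covariate.

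The first comparison asked which factors differ in RNA level after 6 h without sleep, over all strains and times. Transcripts of start codon recognition (Eif5), of cap-dependent loading (Eif4b), of an eIF2B subunit (Eif2b3) and of Eif2d were among those that fell. The elongation factors eEF1A and eEF2 themselves gave differences near 0. Rises were fewer and came mainly from Eef1akmt1 and from 1 probe set each of Eef1d, Eif2s2 and Eif1a. The other Eif1a probe set fell, and the other probe sets of Eef1d and Eif2s2 were not called. All changes were small, between 0.897 and 1.16 times the control level. In the limma model of the 24 groups, with p-values adjusted by the Benjamini-Hochberg method across the 45037 probe sets and a threshold of 0.05, 33 of the 147 probe sets (22.4%) were called, against 17.3% of all probe sets. Rises made up 9 of them (6.12% of members, against 8.31% of all) and falls 24 (16.3%, against 9% of all), and the calls fell on 21 genes, of which 7 had a rise and 16 a fall.

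The members were brighter than most probe sets, and bright probe sets were called more often. Of the 110 members above the median level, 28.2% were called, against 28.6% of all probe sets above that level, so the share of calls was near the background. The direction was less even: 20.9% of these members were lower, against 14.5% of all, and 7.27% were higher, against 14.1%. The share that was higher moved with the processing. From 8 of the 110 it went to 16 when only probe sets above the median level were fitted (14.5%, against 16.1% of all). It went to 15 with the spike-in arrays described above as a block (13.6%, against 16.3%) and to 13 with array weights (11.8%, against 16.3%). The share that was lower was 23.6%, 23.6% and 26.4% under the same settings, against 16.8%, 16.9% and 17.9% of all. The remaining 37 members gave 2 calls. The comparisons by strain and by time below are set against all probe sets, without a match for level. The median difference over all members was -0.0034, against -0.0024 over all probe sets.

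**Figure D1:**
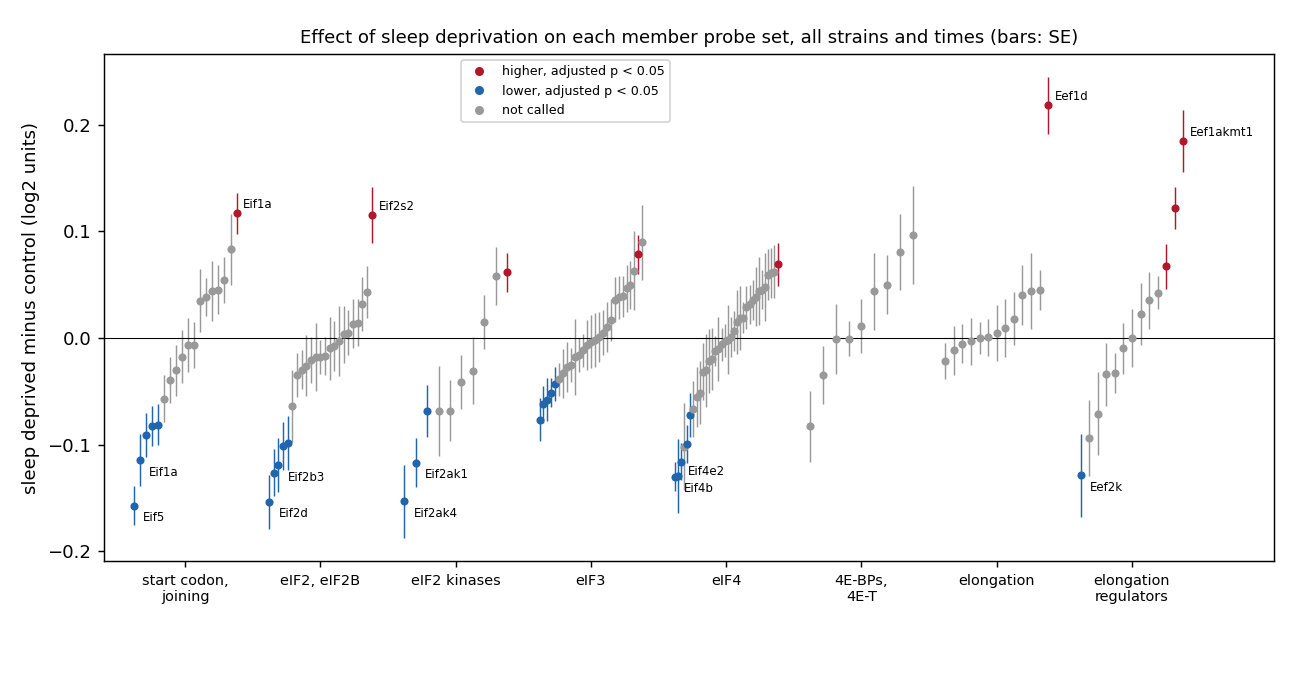
Difference between sleep-deprived and control arrays (log2 units, vertical axis) for each of the 147 probe sets, grouped by role in translation and ordered by size within each role. Points are fitted means over strains and times, bars are standard errors, and called probe sets are coloured. Most probe sets sit within 0.1 of 0, called falls reach -0.16 (Eif5), and the highest rise is 0.22 (Eef1d).

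Among the factors of start codon selection and subunit joining, 5 of 18 probe sets fell and 1 rose. Eif5, whose protein triggers GTP hydrolysis by eIF2 at the start codon, gave the largest fall of all members. On its probe set 1415723_at, controls ran from 10.61 to 11.27 (median 10.91) and sleep-deprived arrays from 10.57 to 11.04 (median 10.74). The ranges overlapped, and the sleep-deprived mean was lower in 11 of 12 pairs of groups matched for strain and time. The fitted fall was 0.16 (SE 0.018), or 0.897 times the control level, with an adjusted p of 6.06e-10 by limma. A second Eif5 probe set, 1433631_at, fell by 0.091 (SE 0.020, adjusted p 0.000557 by limma), and the other 3 of its 5 were not called.

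Eif1a, which codes for the factor eIF1A that keeps the scanning complex open, was called in both directions. On 1424343_a_at controls ran from 8.32 to 8.74 (median 8.58) and sleep-deprived arrays from 8.51 to 8.86 (median 8.69). This probe set rose by 0.12 (SE 0.019, adjusted p 3.21e-06 by limma) and was higher in 12 of 12 matched pairs. On 1424344_s_at controls ran from 6.94 to 7.52 (median 7.21) and sleep-deprived arrays from 6.86 to 7.29 (median 7.09), and the fall was 0.11 (SE 0.024, adjusted p 0.000251). Both Eif1a ranges overlapped between conditions. Endings such as _a_at, _s_at and _x_at mark probe sets whose probes match several transcripts or genes, so a direction for Eif1a as a gene cannot be given from these 2. The related Eif1ax was lower by 0.082 on 1 of its 3 probe sets and Eif1ad by 0.083 on 1 of 2, while Eif5b and Eif6 had no call on 3 and 2 probe sets.

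In the eIF2 and eIF2B group, 5 of 23 probe sets fell and 1 rose. The group was formed by gene symbol, so it also holds Eif2d and Eif2a, which are not subunits of eIF2 or eIF2B. Eif2d codes for a factor that can bring tRNA to the ribosome without eIF2 and takes part in ribosome recycling. On its probe set 1436724_a_at controls ran from 7.70 to 8.35 (median 7.99) and sleep-deprived arrays from 7.48 to 8.11 (median 7.86), and most arrays of the groups overlapped. The fall was 0.15 (SE 0.025), to 0.899 times the control level, in 12 of 12 matched pairs, with an adjusted p of 4.04e-06 by limma. Eif2d fell too on 1451211_a_at (by 0.13, SE 0.022) and on 1455797_x_at (by 0.10, SE 0.022), and its other 3 probe sets were not called.

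Eif2b3, a subunit of the exchange factor eIF2B, has a single probe set here, which fell by 0.12 (SE 0.026, adjusted p 0.000331 by limma) in 10 of 12 matched pairs. The other eIF2B subunits, Eif2b1, Eif2b2, Eif2b4 and Eif2b5, had no call on 7 probe sets, with differences between -0.035 and 0.032. Eif2a, another carrier of initiator tRNA, was lower by 0.099 on 1 of 3 probe sets. Eif2s2, the beta subunit of eIF2, was higher by 0.12 (SE 0.026, adjusted p 0.000745 by limma) on 1441023_at. Its other 5 probe sets were not called, with differences between -0.021 and -0.0027.

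The eIF2 kinases shut down initiation under stress, each for its own signal: Eif2ak1 (HRI) responds to lack of heme, Eif2ak2 (PKR) to double-stranded RNA and Eif2ak4 (GCN2) to lack of amino acids. Over their 10 probe sets, 3 fell and 1 rose. Eif2ak4 fell by 0.15 (SE 0.034, adjusted p 0.000584 by limma) on 1443235_at, in 11 of 12 matched pairs, and its second probe set was not called. Eif2ak1 fell by 0.12 (SE 0.023) on 1436006_at and rose by 0.062 (SE 0.018) on 1421901_at, with 3 further probe sets not called, so its probe sets were not of 1 direction. Eif2ak2 was lower by 0.069 on 1422005_at with an adjusted p of 0.0443 by limma, a call that was lost when any 1 of 38 arrays was left out (highest adjusted p 0.0728).

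The eIF3 complex, the large scaffold that binds the small subunit, had 5 falls and 1 rise on 27 probe sets of 11 genes, and most of its subunits were not called. Eif3e, 1 of its subunits, gave 3 of the falls, by 0.077, 0.062 and 0.058 on 3 of 4 probe sets, and Eif3c (by 0.051) and Eif3f (by 0.043) gave the others. Eif3b, a core subunit, rose by 0.078 (SE 0.018, adjusted p 0.000906 by limma) in 11 of 12 matched pairs. The smallest of these effects were close to the threshold: the call of Eif3f was lost without any 1 of 43 arrays and that of Eif3e 1439268_x_at without any 1 of 11. None of the 4 probe sets of Eif3a was called (differences 0.039 to 0.090, lowest adjusted p 0.0692 by limma).

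The eIF4 group had 5 falls and 1 rise on 34 probe sets. Eif4b codes for a protein that helps the helicase eIF4A unwind the start of the message, and it is the only member gene with several probe sets of which every one was called in 1 direction. On 1426380_at controls ran from 10.20 to 10.49 (median 10.38) and sleep-deprived arrays from 10.10 to 10.35 (median 10.25). On 1426378_at controls ran from 9.56 to 9.98 (median 9.80) and sleep-deprived arrays from 9.50 to 9.77 (median 9.66). The ranges overlapped on both probe sets, but the sleep-deprived median lay close to the lower end of the controls on the first. The falls of Eif4b were 0.13 (SE 0.014, adjusted p 4.55e-11 by limma), 0.12 (SE 0.017, adjusted p 4.94e-07) and 0.099 (SE 0.018, adjusted p 1.91e-05), in 12, 11 and 11 of 12 matched pairs.

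Eif4e2, which codes for a relative of the cap-binding protein that competes with it for caps, was lower by 0.13 and 0.072 on 2 of 5 probe sets. Eif4g2, whose protein DAP5 can start translation without the cap-binding protein, rose by 0.069 (SE 0.020, adjusted p 0.00888 by limma) on 1 of 5. The cap-binding protein Eif4e itself had no call on 4 probe sets, nor did the helicases Eif4a1, Eif4a2 and Eif4a3 on 5, Eif4g3 on 4, or Eif4h on 6. The eIF4E-binding proteins, which hold the cap-binding protein inactive until they are phosphorylated, and the eIF4E transporter had 0 of 9 probe sets called by limma (lowest adjusted p 0.0796, differences -0.083 to 0.096).

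The elongation factors were nearly flat, with 1 rise and 0 falls on 13 probe sets. Eef1a1 and Eef1a2, the widely expressed and the neuronal and muscle form of eEF1A, differed by 0.00060 (SE 0.017) and 0.0045 (SE 0.026), Eef2 by -0.021 (SE 0.017) on 1424736_at, and Eef1b2 by -0.0052 (SE 0.018). Eif5a, whose protein eases the ribosome over difficult stretches, differed by 0.00010 (SE 0.015) on 1451470_s_at. The exception was Eef1d, a subunit of the factor that recharges eEF1A with GTP. On 1428135_a_at its controls ran from 5.29 to 5.81 (median 5.58) and its sleep-deprived arrays from 5.56 to 6.11 (median 5.76). This probe set rose by 0.22 (SE 0.027), to 1.16 times the control level, in 12 of 12 matched pairs, with an adjusted p of 3.55e-09 by limma. The other 3 Eef1d probe sets, which sit at other levels (4.81, 8.09 and 9.54), were not called, with differences of 0.0091 to 0.044.

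Among the regulators of elongation, 3 of 13 probe sets rose and 1 fell. All 3 rises belong to Eef1akmt1, the enzyme that methylates a lysine of eEF1A. On 1418386_at controls ran from 6.99 to 8.52 (median 8.18) and sleep-deprived arrays from 7.21 to 8.58 (median 8.38), a width set by strain: within AKR/J they ran from 8.16 to 8.52 in controls and from 8.38 to 8.58 after sleep deprivation. The rise of Eef1akmt1 was 0.18 (SE 0.029) on this probe set, in 12 of 12 matched pairs, 0.12 (SE 0.020) on 1449072_a_at and 0.067 (SE 0.021) on 1435270_x_at, with adjusted p-values of 2.04e-06, 2.21e-06 and 0.0166 by limma. Eef2k, the kinase that slows elongation by phosphorylating eEF2, was lower by 0.13 (SE 0.039, adjusted p 0.0123 by limma) on 1 of 3 probe sets.

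**Figure D2:**
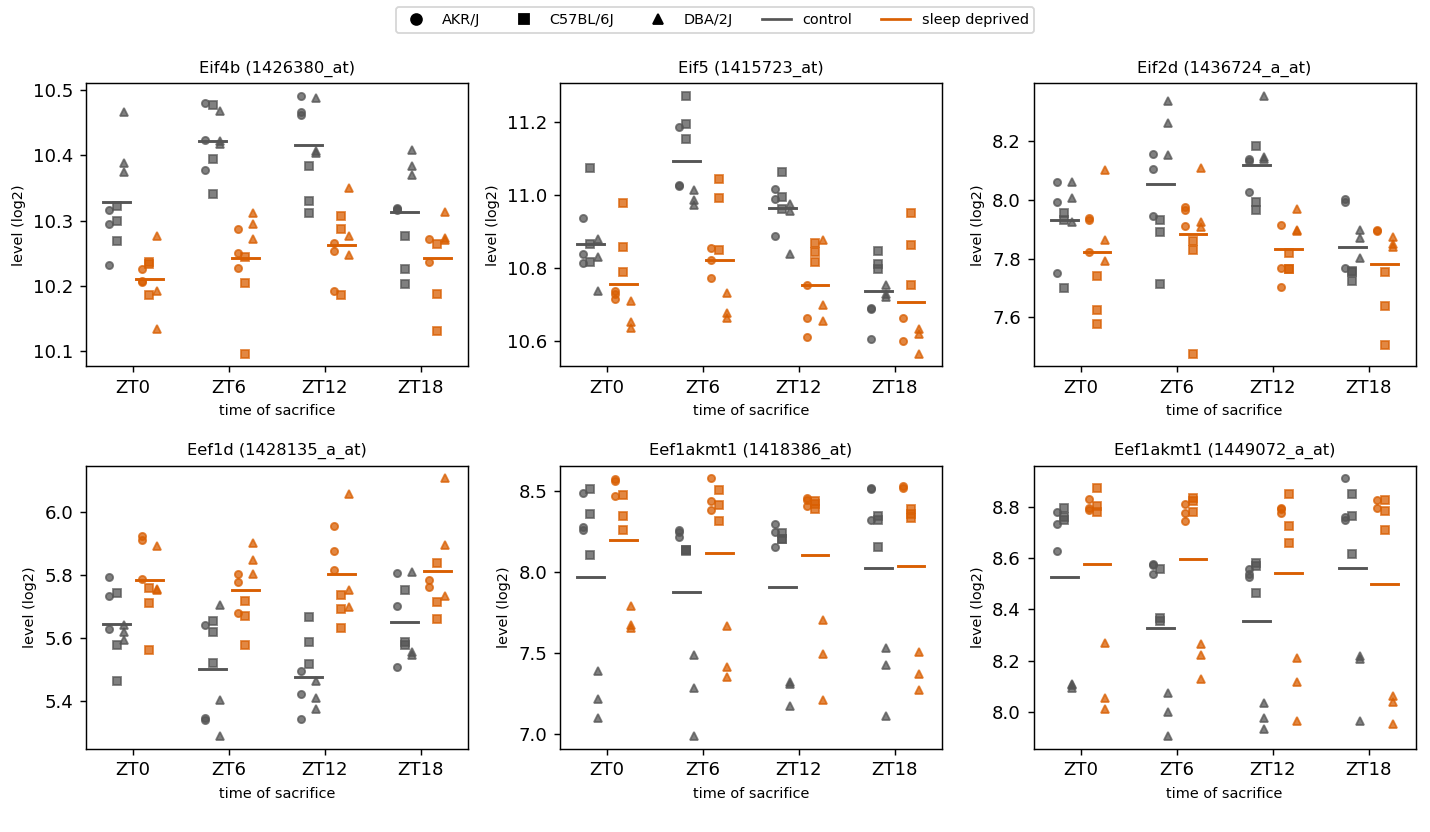
Log2 level on every array (vertical axis) by time of sacrifice (horizontal axis) for 6 probe sets. Symbols mark strains, grey is control, orange is sleep deprived, and the horizontal bars are means of the 9 arrays (8 for sleep deprived ZT18). The bars for Eif4b, Eif5 and Eif2d are lower after sleep deprivation at each time, and Eef1akmt1 lies lowest in DBA/2J.

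Probe sets of 1 gene often differed in their call. Some of those not called were dim, such as Eif3e 1419822_at (mean level 3.82) and Eif2d 1440968_at (3.77). The part of level in this was not tested. Of the 39 genes with several probe sets, 1 had every probe set called in 1 direction (Eif4b), 15 had some called in 1 direction, 2 were called in both directions (Eif1a and Eif2ak1) and 21 had none. Counting each gene once on its brightest probe set gave 14 of 55 genes called, against 22.1% of all named genes counted so, with 5 higher (9.95% of all) and 9 lower (12.2% of all). Leaving out the probe sets with the endings above gave 18 of 98 called, against 16.6% of all such probe sets, with 4 higher (7.73% of all) and 14 lower (8.85% of all). Both totals were near the background.

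Promoters of the genes that moved on at least 2 probe sets and in 1 direction only are shown to let their sequence be set side by side. These genes were Eif2d, Eif4b, Eif4e2, Eif5 and Eif3e for the falls and Eef1akmt1 for the rises, of which Eif3e and Eef1akmt1 had no match in the promoter table. The 120 bases before the transcript start are given 5′ to 3′ from the RefSeq promoter table (GRCm38.p6), all on the plus strand, at chr1:131153087-131153206 for Eif2d, chr15:102073653-102073772 for Eif4b, chr1:87213791-87213910 for the first of 3 starts of Eif4e2, and chr12:111537981-111538100 for Eif5. Capitals mark a GC box (GGCGGG) or an ETS core (CTTCCG), on either strand.
Eif2d: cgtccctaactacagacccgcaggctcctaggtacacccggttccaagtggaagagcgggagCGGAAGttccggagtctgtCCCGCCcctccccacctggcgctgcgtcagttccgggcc
Eif4b: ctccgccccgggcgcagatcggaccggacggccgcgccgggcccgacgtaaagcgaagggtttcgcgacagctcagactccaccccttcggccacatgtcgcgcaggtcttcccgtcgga
Eif4e2: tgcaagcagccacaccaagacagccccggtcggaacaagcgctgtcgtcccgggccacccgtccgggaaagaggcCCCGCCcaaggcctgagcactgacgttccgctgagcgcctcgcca
Eif5: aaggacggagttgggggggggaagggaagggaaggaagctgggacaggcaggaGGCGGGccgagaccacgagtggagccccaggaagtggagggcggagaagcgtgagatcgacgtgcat

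The stretch of Eif2d holds 1 ETS core and 1 GC box, those of Eif4e2 and Eif5 hold 1 GC box each, and that of Eif4b holds neither. RefSeq promoters were matched for 44 of the 55 genes, and 7 motifs were searched on both strands of the 250 bases before each start, none of them contained in another. The GC box occurred in 30 of 44 member genes (68.2%, against 35.1% of 27025 genes), the ETS core in 19 (43.2%, against 15.3%) and the E-box CACGTG, the letters bound by clock and Myc family proteins, in 11 (25%, against 6.86%). TATAAA occurred in 3 (6.82%, against 14.3%), CCAAT in 14 (31.8%, against 37.5%), and the cyclic AMP element TGACGTCA and the D-box TTATGTAA in none (1.77% and 0.977% of all genes). Of the genes that fell on at least 1 probe set and rose on none, 12 had a promoter. Of these, 10 held the GC box, 6 the ETS core and 2 (Eef2k and Eif3f) the E-box. The same motifs stood in 30, 19 and 11 of all 44 member genes, and no test compared the fallen genes with the rest. A gene counted if any of its starts held the motif, and the background of 27025 genes was not matched for level or base content. These shares describe letters in a window and not bound sites.

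The next comparison asked whether the strains responded alike. In AKR/J, 13 members were called, 6 higher (3.4% of all probe sets were) and 7 lower (2.45% of all). In C57BL/6J, 12 were called, 3 higher (3.27% of all) and 9 lower (3.18% of all), and in DBA/2J 14, 4 higher (3.27% of all) and 10 lower (3.63% of all). Leaving out the 6 arrays set apart by their spike-in signal gave 7 calls in C57BL/6J.

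Ordered by p, Eif4b 1426380_at was first or next to first among the falls in each strain, and it fell by 0.13 (SE 0.024) in AKR/J, 0.11 (SE 0.023) in C57BL/6J and 0.15 (SE 0.023) in DBA/2J. Eif5 1415723_at fell by 0.18 (SE 0.032), 0.10 (SE 0.031) and 0.19 (SE 0.031) in the same order, and its C57BL/6J call (adjusted p 0.0289 by limma) was lost without any 1 of 7 arrays (highest adjusted p 0.0769) and with only the C57BL/6J groups in the fit (0.133). Further falls by smallest p were those of Eif4b 1426378_at (0.13) and Eif2ak4 (0.23) in AKR/J. In C57BL/6J they were Eif2b3 (0.19) and Eif2d 1451211_a_at (0.16) and 1436724_a_at (0.18), and in DBA/2J Eif2ak1 1436006_at (0.18) and Eif4b 1426378_at (0.12). Without the 6 spike-in arrays the C57BL/6J calls of Eif2b3 and Eif2d 1451211_a_at were among those lost (adjusted p 0.0534 and 0.0936 by limma).

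Among the rises, Eef1d 1428135_a_at reached 0.26 (SE 0.047) in AKR/J and 0.31 (SE 0.046) in DBA/2J, and differed by 0.083 without a call in C57BL/6J. Eif3b was higher by 0.13 in AKR/J and 0.11 in DBA/2J, the second lost without any 1 of 3 arrays (highest adjusted p 0.0600 by limma), and differed by -0.0013 in C57BL/6J. Eif1a 1424343_a_at was higher by 0.16 in AKR/J and by 0.11 in C57BL/6J, the second lost without any 1 of 7 arrays (highest adjusted p 0.0662). Eif2s2 1441023_at was higher by 0.15 in C57BL/6J (adjusted p 0.0298 by limma), a call lost without the spike-in arrays (0.192) and without any 1 of 7 arrays. Its rise of 0.14 in DBA/2J (adjusted p 0.0396) was lost without any 1 of 12 arrays (highest adjusted p 0.123). Eef1akmt1 was higher on 1449072_a_at by 0.14 in AKR/J and 0.17 in C57BL/6J, and differed by 0.056 without a call in DBA/2J. On 1418386_at Eef1akmt1 was higher by 0.23 in DBA/2J and 0.17 in AKR/J, and differed by 0.15 without a call in C57BL/6J. The AKR/J call on 1418386_at was lost without any 1 of 11 arrays (highest adjusted p 0.0746 by limma). The test of the difference itself, strain by sleep deprivation, called 0 of 147 members in limma (9 at an unadjusted p under 0.05), against 0.0222% of all probe sets. The widest ranges with low p belonged to Eef1d 1428135_a_at (0.23, adjusted p 0.449) and Eif4e2 1421985_a_at (0.17, adjusted p 0.492), so no member was shown to respond differently by strain at this number of arrays.

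Time of day made more difference to the count. At ZT6 limma called 22 members, 7 higher (5.13% of all probe sets were) and 15 lower (5.29% of all). At ZT12 it called 26, 7 higher (4.71% of all) and 19 lower (5.04% of all). At ZT0 it called 3, 2 higher (1.26% of all) and 1 lower (0.453% of all). At ZT18 it called none (7 at an unadjusted p under 0.05, lowest adjusted p 0.537), against 0.0777% of all probe sets. Without the 6 spike-in arrays, 2 of which are among the 9 sleep-deprived arrays at ZT6, the count at ZT6 was 13. The count at ZT0 was 9 without C57BL/6J sleep deprived ZT0 replicate 3 and 5 without AKR/J control ZT0 replicate 2.

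After sleep loss in the first part of the light period, at ZT6, Eif5 1415723_at fell by 0.27 (SE 0.036, adjusted p 9.04e-08 by limma), Eif4b 1426380_at by 0.18, Eif4b 1426378_at by 0.20 and Eif1ad by 0.18. Eef1akmt1 1449072_a_at rose by 0.27 (SE 0.039, adjusted p 4.42e-07 by limma), Eif2s2 1441023_at by 0.28, Eef1d 1428135_a_at by 0.25 and Eef1akmt1 1418386_at by 0.24. Eif4ebp2 1417084_at, for an eIF4E-binding protein, had a larger rise of 0.34 (SE 0.091, adjusted p 0.00688 by limma), a call lost without the spike-in arrays (0.0898) and with only the ZT6 groups in the fit (0.088). At ZT12 the falls by smallest p were Eif5 1415723_at (0.21), Eif2d 1436724_a_at (0.29), Eif4b 1426380_at (0.15) and Eif2b3 (0.23). The rises at ZT12 by smallest p were Eef1d 1428135_a_at (0.33), Eef1akmt1 1449072_a_at (0.19), Eif4h 1445746_at (0.29) and Eif4e3 1417977_at (0.19), another cap-binding relative. At ZT0 the calls were Eif4b 1426380_at (a fall of 0.12), Eif1a 1424343_a_at (a rise of 0.15) and Eef1akmt1 1418386_at (a rise of 0.23), and all 3 were lost when only the ZT0 groups entered the fit.

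**Figure D3:**
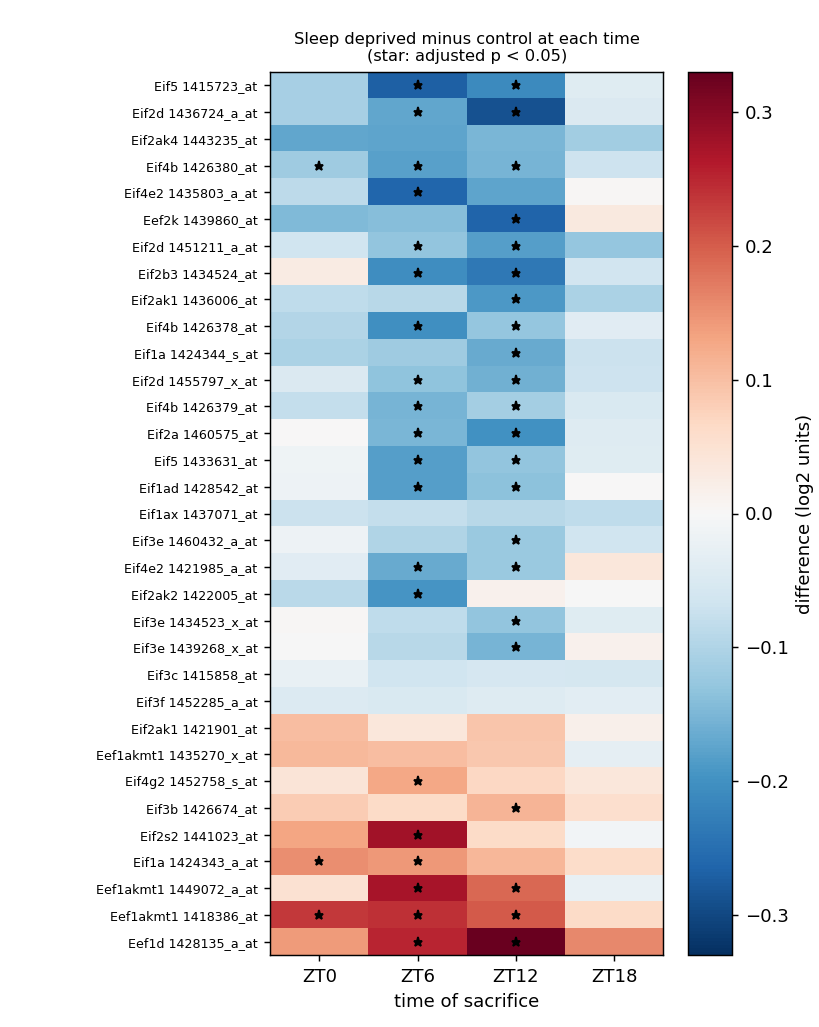
Difference between sleep-deprived and control arrays (log2 units, colour) at each time of sacrifice (columns) for the 33 probe sets called over all strains and times (rows, ordered by that difference). Stars mark an adjusted p under 0.05 at that time. Stars crowd in the ZT6 and ZT12 columns, 3 stand in ZT0 and none in ZT18.

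The test of the difference between times, time by sleep deprivation, called 3 members in limma, against 1.4% of all probe sets: Eif5 1415723_at, Eef1akmt1 1449072_a_at and Eif4h 1445746_at. Eif5 at ZT6 read 11.03, 11.03 and 11.19 in AKR/J controls, 11.15, 11.27 and 11.19 in C57BL/6J controls and 10.97, 11.01 and 10.99 in DBA/2J controls. The sleep-deprived arrays at ZT6 read 10.77, 10.85 and 10.82, then 10.99, 10.85 and 11.04, then 10.66, 10.68 and 10.73, so within each strain every Eif5 value was below every control. At ZT18 the ranges overlapped, from 10.61 to 10.85 in controls and from 10.57 to 10.95 after sleep deprivation. The Eif5 differences were -0.11 at ZT0, -0.27 at ZT6, -0.21 at ZT12 and -0.040 at ZT18, a range of 0.23 with an adjusted p of 0.0201 by limma, which became 0.0524 without AKR/J sleep deprived ZT18 replicate 1.

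Eef1akmt1 1449072_a_at read 8.54, 8.57 and 8.58 in AKR/J controls, 8.56, 8.37 and 8.35 in C57BL/6J controls and 7.905, 8.072 and 7.999 in DBA/2J controls at ZT6. The sleep-deprived arrays read 8.81, 8.78 and 8.75, then 8.82, 8.78 and 8.84, then 8.26, 8.22 and 8.13, again with no overlap within a strain. At ZT18 the Eef1akmt1 values overlapped in each strain. Its differences were 0.051 at ZT0, 0.27 at ZT6, 0.19 at ZT12 and -0.026 at ZT18, a range of 0.30 with an adjusted p of 0.00165 by limma.

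Eif4h codes for a small helper of the eIF4A helicase, and its probe set 1445746_at lies near the bottom of the array's scale. At ZT12 AKR/J read 3.13, 2.78 and 2.79 in controls and 3.64, 3.72 and 3.70 after sleep deprivation, with no overlap. C57BL/6J at the same time read 4.32, 4.22 and 4.36 in controls and 4.25, 4.45 and 4.15 after sleep deprivation, which overlapped. In DBA/2J the Eif4h values also overlapped at ZT12, with 4.21, 4.39 and 4.49 against 4.42, 4.38 and 4.57. The differences over strains were -0.18 at ZT0, 0.020 at ZT6, 0.29 at ZT12 and -0.064 at ZT18, a range of 0.47 with an adjusted p of 0.00222 by limma.

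In undisturbed controls, 23 members (15.6%) on 14 genes differed with time of day by limma, against 11.7% of all probe sets, not matched for level. Counted once on its brightest probe set, 10 of 55 genes were called, and the share of all named genes counted so was not computed for time of day. These values share the control arrays with the sleep deprivation effects above, and are therefore given side by side and not as separate support. Eif5 1415723_at had the smallest p: its control means were 10.87 ± 0.095 at ZT0, 11.09 ± 0.11 at ZT6, 10.96 ± 0.067 at ZT12 and 10.74 ± 0.073 at ZT18 (SD, n = 9 arrays each), a range of 0.35 with an adjusted p of 2.22e-10 by limma. A further pair of Eif5 probe sets followed the same order of times, 1454664_a_at with a range of 0.23 and 1433631_at with 0.20. The sleep-deprived means of Eif5 1415723_at were 10.76, 10.82, 10.75 and 10.71 at ZT0, ZT6, ZT12 and ZT18.

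Highest control means fell at ZT6 for 7 of the 23, at ZT12 for 9 and at ZT18 for 7, and lowest means fell at ZT18 for 13 and at ZT0 for 5. Over all probe sets called for time of day, 27.9% were lowest and 39.3% highest at ZT18. The 13 probe sets lowest at ZT18 do not stand for 13 genes, since Eif5, Eif2d and Eif4b each gave more than 1. Members highest at ZT12 and lowest at ZT18 included Eif1ad (range 0.17), Eif2d 1436724_a_at (0.28) and Eif2ak1 1436006_at (0.21), while Eif2b3 (0.28) was highest at ZT12 and lowest at ZT0. Eef1akmt1 1449072_a_at was highest at ZT18 and lowest at ZT6, with 8.53 at ZT0, 8.33 at ZT6, 8.35 at ZT12 and 8.56 at ZT18 (range 0.23, adjusted p 1.26e-06 by limma). By role, start codon selection had 6 of 18 probe sets called, the eIF2 kinases 3 of 10, eIF4 5 of 34, eIF2 and eIF2B 4 of 23, the elongation regulators 3 of 13, elongation 1 of 13, eIF3 1 of 27 and the eIF4E-binding proteins 0 of 9.

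Strain differences in controls were the most frequent, with 62 members (42.2%) on 29 genes called by limma, against 32.8% of all probe sets. The background was not matched for level, and the members were brighter than most. Counted once on its brightest probe set, 17 of 55 genes were called, and the share of all named genes counted so was not computed for strain. Most of the 62 were small, with a median range of 0.17 between strain means, against 0.21 among all called probe sets. A range of at least 0.5 was reached by 7 members (4.76%, against 4.98% of all). The widest was Eif4g3 1440571_at, for a scaffold of the cap-binding complex. Its 12 control arrays ran from 6.20 to 6.88 (median 6.41) in AKR/J, from 5.51 to 5.98 (median 5.75) in C57BL/6J and from 4.04 to 4.95 (median 4.47) in DBA/2J, with no overlap between strains. This is a 3.90-fold range between the AKR/J and DBA/2J means (adjusted p 2.56e-31 by limma). Whether the probes match the sequence of each strain equally was not tested, for this or the other strain ranges. The other Eif4g3 probe sets did not share it: 1426833_at read 9.45 ± 0.13, 9.70 ± 0.13 and 9.59 ± 0.095 (SD, n = 12 arrays each) in the same order, 1430578_at was highest in C57BL/6J (4.76 ± 0.13, against 4.33 ± 0.12 in AKR/J and 4.29 ± 0.15 in DBA/2J, a range of 0.47), and 1446145_at was not called.

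Eif4h 1445746_at was lower in AKR/J, at 3.21 ± 0.27, than in C57BL/6J (4.29 ± 0.080) and DBA/2J (4.34 ± 0.13), as SD with n = 12 arrays each. The other Eif4h probe sets had ranges of 0.047 to 0.12. Eef1akmt1 was lowest in DBA/2J on all 4 of its probe sets, with 7.28 ± 0.17 against 8.32 ± 0.12 in AKR/J and 8.24 ± 0.12 in C57BL/6J on 1418386_at, a 2.06-fold range. The range of Eef1akmt1 was 0.61 on 1449072_a_at, 0.44 on 1435270_x_at and 0.15 on 1435269_at, and AKR/J and C57BL/6J lay close together on each. Eif2ak1 1436006_at was highest in DBA/2J (range 0.63), Eif5 1456256_at in C57BL/6J (0.63) and Eif4e 1450909_at in C57BL/6J (0.59). Their other probe sets had ranges of 0.063 to 0.39 for Eif2ak1, 0.12 to 0.16 for Eif5 and 0.0155 to 0.14 for Eif4e. The eIF4E-binding proteins had 0 of 9 probe sets called between strains (lowest adjusted p 0.0907 by limma), and the eIF2 kinases 7 of 10.

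**Figure D4:**
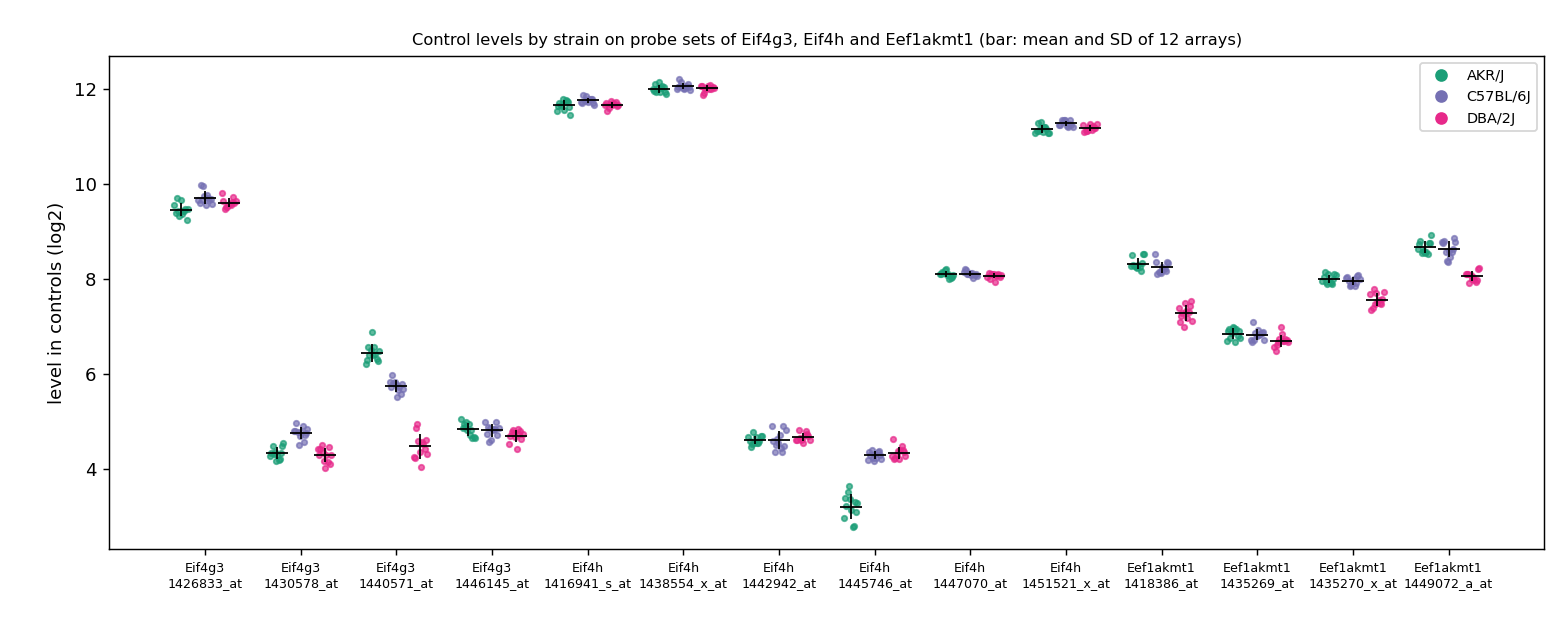
Log2 level in control arrays (vertical axis) by strain for the 4 probe sets of Eif4g3, the 6 of Eif4h and the 4 of Eef1akmt1 (horizontal axis). Each point is 1 array, and the black bars are the mean and SD of 12 arrays. Eif4g3 1440571_at separates all 3 strains, Eif4h 1445746_at separates AKR/J, and Eef1akmt1 is lowest in DBA/2J, while Eif4g3 1430578_at is highest in C57BL/6J and the other probe sets of Eif4g3 and Eif4h have ranges between strain means of at most 0.25.

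Other genes of translation and its control were read from a list of 72, each on its brightest probe set, and 68 were measured. After sleep deprivation, over all strains and times, 18 rose, against 9.95% of all named genes on their brightest probe set, and 6 fell, against 12.2%, with a median difference of 0.019, against -0.0024 over all probe sets. Dnajc3, an inhibitor of eIF2 kinases at the endoplasmic reticulum, rose by 0.30 (SE 0.025), Ddit3 by 0.15 (SE 0.015) and Atf4 by 0.12 (SE 0.015), both transcription factors that act when eIF2 is phosphorylated, and the kinase Rps6ka3 by 0.14 (SE 0.019). Mknk1, a kinase of eIF4E, fell by 0.17 (SE 0.023), Pdcd4, an inhibitor of eIF4A, by 0.096 (SE 0.021), the helicase Ddx3x by 0.11 (SE 0.026), and Denr, a ribosome recycling factor related to Eif2d, by 0.064 (SE 0.017). The members of the present set had 24 falls and 9 rises in the same comparison, on 147 probe sets and not on 1 per gene. Counted on the brightest probe set of each of their 55 genes, 9 fell and 5 rose.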

How the data were processed

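Whole-brain RNA was measured on Affymetrix expression arrays, 71 in 24 groups. The authors deposited RMA log2 levels (background-corrected, normalized and summarised per probe set), per the submitters' processing notes, with the RMA version and settings not given in the sources used here. The 64 control probe sets of 45101 were left out. Of the rest, 34945 had 1 gene symbol in the platform annotation, 932 several and 9160 none, and 8 probe sets with several symbols that include a translation factor were not used. limma 3.58.1 in R 4.3.3 fitted the means of the 24 groups (47 residual degrees of freedom) and gave moderated tests of each contrast, two-sided, adjusted with Benjamini-Hochberg over all 45037 probe sets. Interaction, time of day and strain were F tests, whose size is the range between fitted effects. The number of arrays limits the precision. Replicate numbers were not used to pair arrays across groups in this fit.

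The members, lists and tests were chosen with earlier results of these data known. Named were called members, up to 12 rises and 12 falls with the smallest p over strains and times, 4 per direction for a strain or time, and 8 for an F test, with values per array for the 8 smallest p and for interaction calls, and 4 per direction of the pathway list. Named after their values were seen were the further falls over strains and times (Eif4e2, Eef2k, Eif1ad, Eif1ax, Eif3c, Eif3e, Eif3f, Eif2a and Eif2ak2), Eif4ebp2 at ZT6 and the members described as not called. The alternatives were quantile normalization, centring of array medians, a filter on dim probe sets, trend with robust variances, array weights and the replicate number as a block. Others were only the compared groups, the spike-in arrays as a block or left out, and pituitary markers as a covariate. Counts were also taken by probe set ending, with 1 probe set per gene, and without each array in turn.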

Additional observations from a re-analysis of the deposited data

Results flagged for a closer look

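The effect of sleep deprivation differed between times of sacrifice for 3 probe sets in the limma F test, averaged over the 3 strains. Eif4h 1445746_at had a range of 0.47 between times (0.4685 before rounding, adjusted p 0.00222), with the AKR/J arrays at ZT12 apart and those of the other strains overlapping. Eef1akmt1 1449072_a_at had a range of 0.30 (0.2973, adjusted p 0.00165), with rises at ZT6 and ZT12. Eif5 1415723_at had a range of 0.23 (0.2287, adjusted p 0.0201), with falls at ZT6 and ZT12, and an adjusted p of 0.0524 without AKR/J sleep deprived ZT18 replicate 1.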

How the results depend on the processing

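Of 211 single results, 144 stayed past the threshold under every alternative run and 67 were lost under at least 1. None reversed in sign, which could be seen only for the sleep deprivation contrasts and not for the F tests. The count of 33 over strains and times was 18 without the probe sets ending in _x_at, _s_at or _a_at and 14 with 1 probe set per gene, and 30 to 37 when each array was left out. Of these calls 9 were rises, against 16 above the median level, 16 with a block for the spike-in arrays, 15 with array weights and 13 with the spike-in arrays left out. With 1 probe set per gene the counts were 5 for AKR/J, 7 for C57BL/6J, 4 for DBA/2J, 10 for ZT6, 11 for ZT12, 1 for time by sleep deprivation, 10 for time of day and 17 for strain in controls. Without the endings they were 5 for C57BL/6J, 13 for ZT6, 15 for ZT12 and 13 for time of day. Both settings count fewer probe sets, and shares over all genes or probe sets counted so were computed only for the effect over strains and times. Array weights gave 23 for C57BL/6J, 40 for ZT6 and 10 for time by sleep deprivation. The spike-in arrays left out gave 7 for C57BL/6J and 13 for ZT6, and as a block 6 for time by sleep deprivation. For ZT0 the count of 3 was 6 above the median level, 0 with only the compared groups, and 2 to 9 when each array was left out. The cause of the changes with array weights and the spike-in arrays was not tested. Under the other alternatives and comparisons the counts stayed within 1.5 times, with 0 for ZT18 and for strain by sleep deprivation under each alternative.

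Replicate numbers are shared by the groups and were not used to pair arrays in the main fit. Same-numbered arrays of different groups had a mean correlation of 0.0084 over 805 pairs, with 123 above 0.1. Arrays of different number had a mean of -0.0042 over 1610 pairs, with 211 above 0.1. The fit with the replicate number as a block called 33 members over strains and times, 9 of them higher, and lost 1 of the 211 single results (Eif3f over strains and times). Dim probe sets such as Eif4h 1445746_at lie near the lowest values on these arrays, 2.69, where signal over background limits what can be read.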
